A study of Rattus norvegicus with 18 samples.

Results

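The subunits of oxidative phosphorylation (OXPHOS) were described here across all 18 libraries of a study of glutamate toxicity in rat brain cells. They were taken by name from the deposited table, as every row whose symbol begins with Nduf and a subunit letter and digit, Uqcr, Cox4 to Cox8, Atp5 or Mt-nd, Mt-co, Mt-cyb or Mt-atp, together with Sdha, Sdhb, Sdhc and Sdhd. The rule found 109 of 31463 rows, of which 96 are encoded in the nucleus and 13 in the mitochondrial genome. After a filter on low counts, 97 of them could be tested among 14398 genes, namely 84 nuclear genes and all 13 mitochondrial ones. The 84 comprise 40 genes of complex I, 4 of complex II, 8 of complex III, 13 of complex IV and 19 of complex V. The 13 comprise 7 genes of complex I, 1 of complex III, 3 of complex IV and 2 of complex V.

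RNA was taken from primary cultures of the cerebral cortex of newborn Wistar rats, which hold neurons and glial cells and to which cytosine arabinoside was given to limit the growth of glia. All groups shared this origin, day 10 in vitro and a harvest 4 h after the glutamate model, which the methods describe as an exposure followed by washing, and each had 3 libraries, numbered 1 to 3 in the labels. Control cultures got no glutamate. Glutamate cultures got 100 µM glutamate. Memantine cultures got 100 µM memantine, which blocks NMDA receptors and which the design places within the glutamate model although the label does not name glutamate. Glutamate_vesicles, Glutamate_secret and Glutamate_BPC cultures were given a preparation secreted by human glial progenitor cells 1 day before glutamate, and the vesicle group is the one that the labels identify. The labels leave unsaid whether Glutamate_secret or Glutamate_BPC stands for the protein fraction of the secretome, so both names are used as given. The methods state in general that experiments used unrelated cultures, but neither they nor the labels tie the 3 libraries of a group to separate animals or cultures, so that the p-values measure the spread between these libraries, which may be technical.

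Oxidative phosphorylation is carried out by complexes in the inner mitochondrial membrane. Complex I takes electrons from NADH and complex II takes them from succinate. Complex III passes them to cytochrome c, and complex IV passes them on to oxygen. Complexes I, III and IV pump protons, and complex V, the ATP synthase, uses the proton gradient to make ATP. Complex II is encoded wholly in the nucleus, whereas the other complexes are assembled from subunits of both genomes, so their messages are made by separate transcription machineries. Neurons rely on this pathway for the ATP that restores ion gradients, and calcium that enters through NMDA receptors is partly taken up by mitochondria.

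Levels are given as CPM, a gene's count relative to the library total, after TMM scaling, which sets the libraries to a common level by their trimmed mean ratios. They were not divided by length, so that they are compared between libraries and not between genes. Library totals ran from 8409574 to 17206354 counts. Rows of ribosomal RNA (rRNA) took between 3.04% and 43.0% of a library. Control 1 stood apart with 43.0%, and the share differed with the number of the library, from 13.4% to 43.0% in those numbered 1, from 3.04% to 8.15% in those numbered 2 and from 6.58% to 26.6% in those numbered 3. Markers of the cell types were present as the label of a mixed culture implies. The summed level of 10 neuron markers ran from 2113 to 2855 CPM in Control and from 628 to 1207 CPM in Glutamate. The sum of 7 astrocyte markers ran from 2622 to 6040 CPM in Control and from 5402 to 10636 CPM in Glutamate. In bulk RNA, fewer cells of a type and less RNA per cell cannot be told apart.

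The genome of origin was compared within each library as the share of all OXPHOS counts that came from the 13 mitochondrial genes, a ratio that does not depend on the scaling between libraries. It did not separate the groups. The share was 36.9%, 62.6% and 63.1% in Control and 38.0%, 84.7% and 50.2% in Glutamate, so that 1 Glutamate library lay above the Control range and the other two within it. It was 53.6%, 80.8% and 47.8% in Memantine and 48.0%, 76.6% and 63.2% in Glutamate_vesicles. It was 41.7%, 79.5% and 32.9% in Glutamate_secret and 57.6%, 67.5% and 43.2% in Glutamate_BPC. The group means ran from 51.4% ± 24.7 (SD, n = 3) in Glutamate_secret to 62.6% ± 14.3 (SD, n = 3) in Glutamate_vesicles, with 54.2% ± 14.97 (SD, n = 3) in Control and 57.6% ± 24.2 (SD, n = 3) in Glutamate. The spread within each group was larger than any difference between the means. The counts behind each share were so many that the widest 95% Wilson interval spanned 0.42 percentage points, which covers counting error alone. The libraries numbered 2 ran from 62.6% to 84.7%, and those numbered 1 from 36.9% to 57.6%, so that these sets of 6 did not overlap, while those numbered 3 ran from 32.9% to 63.2%.

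**Figure D1:**
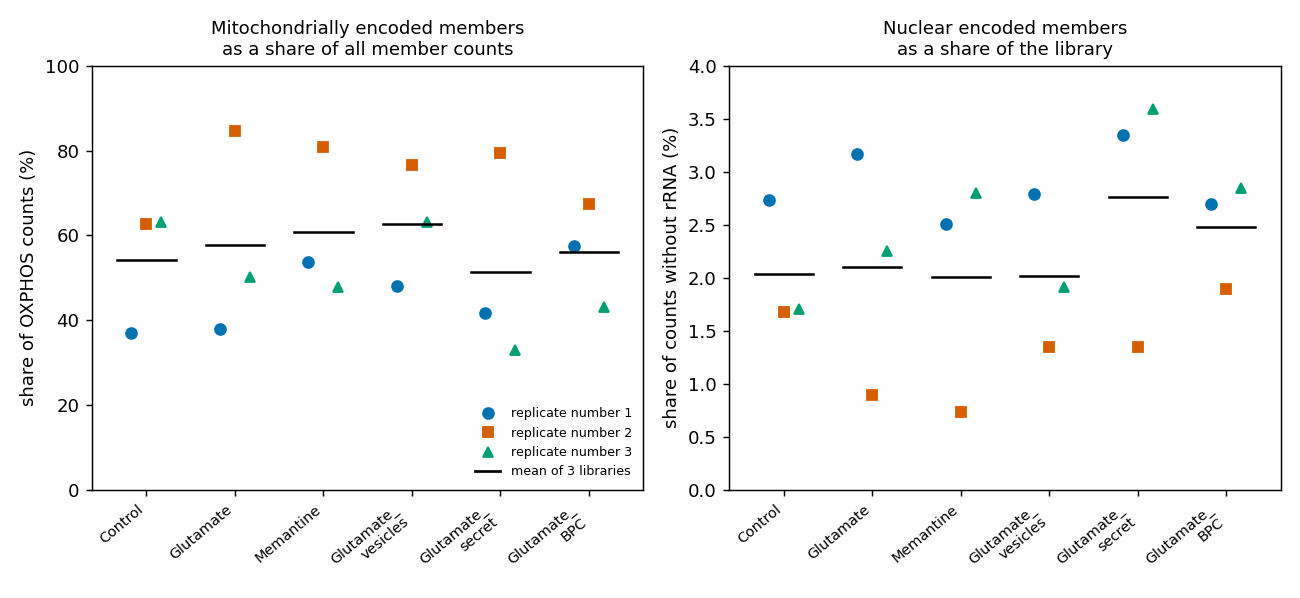
Left, counts of the 13 mitochondrially encoded genes as a percentage of all OXPHOS counts. Right, counts of the nuclear OXPHOS genes as a percentage of the library without rRNA. Each point is 1 library, its colour and shape give the replicate number, and the black line is the mean of the 3 libraries of a group. The number 2 libraries reach 84.7% on the left and fall to 0.731% on the right, and the groups overlap in both panels.

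Glutamate against Control asks what the excitotoxic stimulus did to these messages at 4 h. No OXPHOS gene changed in the quasi-likelihood test of edgeR, with 0 of 97 at an adjusted p below 0.05, where 0% of all genes passed, and 0 of 97 at an unadjusted p below 0.05, where 8.11% of all genes passed. The likelihood-ratio test of edgeR and DESeq2 also called 0 at the adjusted threshold, where they called 0.313% and 1.61% of all genes. The groups overlapped for all 97 genes, where 12.2% of all genes showed no overlap. The median log2 fold change was 0.08 over the nuclear genes, 0.31 over the mitochondrial genes and 0.08 over all genes tested. By complex, the nuclear median was 0.08 for complex I, 0.26 for complex II, 0.05 for complex III, 0.14 for complex IV and 0.03 for complex V. The sign of the nuclear median depended on the model. When the number of the library was added as a block, it was -0.24, with 71 of 84 genes lower. The mitochondrial median was then 0.24 and that of all genes -0.03. By complex, the nuclear median was then -0.21, 0.07, -0.23, -0.26 and -0.32 for complexes I to V in that order. The precision was limited. The median standard error (SE) of a log2 fold change was 0.89 for nuclear genes and 0.53 for mitochondrial ones, so that changes of the size of these medians were not detectable with 3 libraries a group.

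The catalytic core of complex I showed how wide that spread was. Ndufs1, which holds iron-sulphur clusters of the electron path, was at 35.4, 76.5 and 77.4 CPM in Control and at 48.2, 87.0 and 56.4 CPM in Glutamate, and the groups overlapped (log2 fold change 0.01, SE 0.35). Ndufs7, a subunit beside the quinone site, was at 267, 62.2 and 65.3 CPM in Control and at 312, 21.5 and 139 CPM in Glutamate (log2 fold change 0.26, SE 1.03). The values of Ndufs7 differed more between the libraries of a group than between the groups. Ndufv1, the NADH-binding subunit, ran from 147 to 223 CPM in Control and from 89.6 to 271 CPM in Glutamate. Ndufs8 and Ndufv2, further core subunits, had log2 fold changes of 0.36 and 0.00 in that order.

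In complex II the spread differed between genes, and Sdha had the smallest SE of the OXPHOS genes in Glutamate over Control. Sdha, the flavoprotein that oxidises succinate, was at 85.7, 112 and 118 CPM in Control and at 73.7, 95.5 and 101 CPM in Glutamate (log2 fold change -0.23, SE 0.26, adjusted p = 0.999). Over all 18 libraries Sdha stayed between 72.5 and 118 CPM. Sdhb, its iron-sulphur partner, ranged from 51.9 to 292 CPM over the same libraries. The membrane anchors Sdhc and Sdhd had log2 fold changes of 0.36 and 0.19 in Glutamate, with SE 0.49 and 0.47.

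In complexes III, IV and V the core genes likewise overlapped between Control and Glutamate. Uqcrc1 and Uqcrc2, the core proteins of complex III, had log2 fold changes of 0.10 (SE 0.62) and -0.19 (SE 0.43), and the Rieske protein gene Uqcrfs1 had 0.02 (SE 0.50). Cox4i1, the common isoform of a regulatory subunit of complex IV, was at 2346, 464 and 442 CPM in Control and at 2278, 142 and 1002 CPM in Glutamate. The highest Cox4i1 value of either group was that of its library numbered 1. Cox5a, Cox5b and Cox6c, other nuclear subunits of complex IV, had log2 fold changes of -0.03, 0.03 and -0.11. Atp5f1a and Atp5f1b, which form the catalytic head of the ATP synthase, had 0.13 (SE 0.35) and 0.20 (SE 0.47), and Atp5f1c, its central stalk, had -0.32 (SE 0.73).

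Of the 13 mitochondrial genes, 10 had a higher mean in Glutamate and 3 a lower one, and none passed the test. Mt-nd6, a complex I subunit read from the light strand of the mitochondrial genome, had the smallest p. It was at 594, 757 and 545 CPM in Control and at 678, 1543 and 923 CPM in Glutamate. The lowest Glutamate library lay below the highest Control library (log2 fold change 0.73, SE 0.39, adjusted p = 0.716). Mt-cyb, the mitochondrial subunit of complex III, was at 854, 2000.4 and 1673 CPM in Control and at 2132, 3467 and 1642 CPM in Glutamate (log2 fold change 0.68, SE 0.49, adjusted p = 0.924). Control 1, the library with the most rRNA, was the low one. Mt-co1, the catalytic subunit of complex IV, ran from 2767 to 3441 CPM in Control and from 3272 to 6631 CPM in Glutamate. The other complex IV genes Mt-co2 and Mt-co3 had log2 fold changes of 0.33 and -0.04, and the membrane genes of complex V, Mt-atp6 and Mt-atp8, had 0.25 and 0.27. The remaining complex I genes ran from -0.43 for Mt-nd3 to 0.41 for Mt-nd4.

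**Figure D2:**
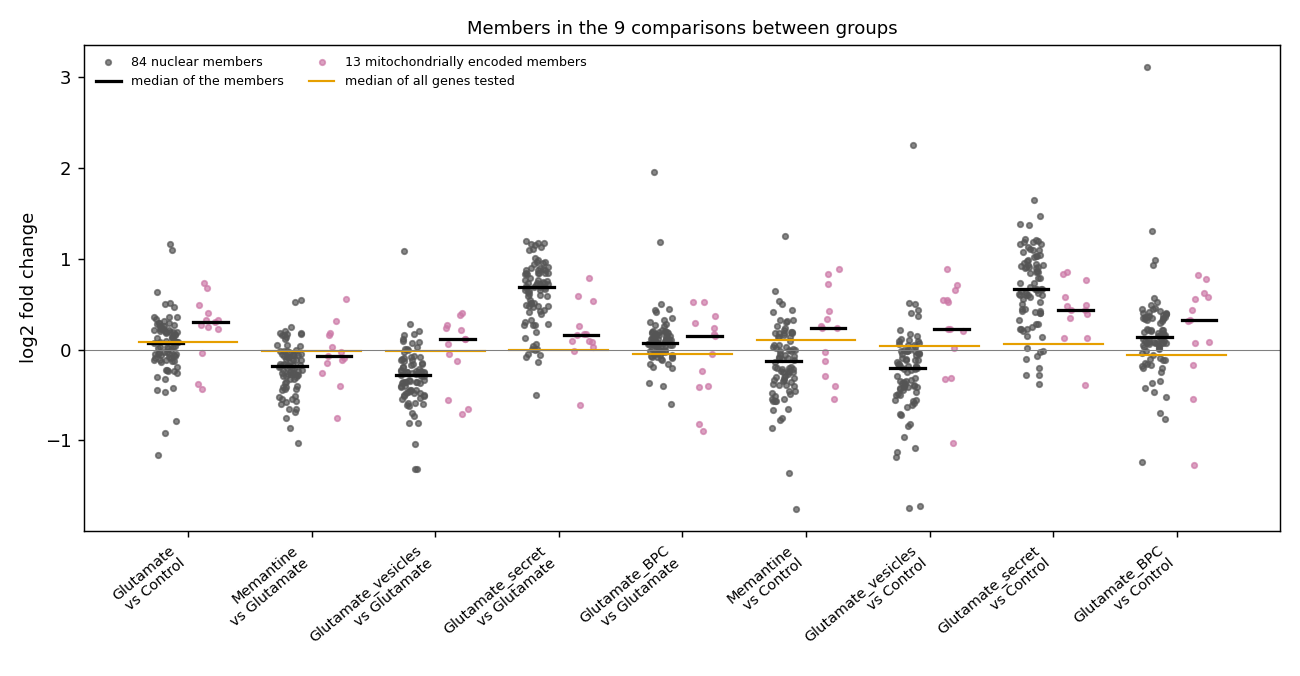
Log2 fold change of each OXPHOS gene (vertical axis) in the 9 comparisons (horizontal axis), with 84 nuclear genes in grey and 13 mitochondrial genes in pink. Black bars are the medians of the members and yellow bars the median of all genes tested. The nuclear median of Glutamate_secret over Glutamate is 0.69, and the highest points in the comparisons of Glutamate_BPC are Cox4i2.

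Memantine against Glutamate asks what the receptor blocker changed within the model. No OXPHOS gene passed, with 0 of 97 at an adjusted p below 0.05, where 0% of all genes passed, and 0 of 97 at an unadjusted p below 0.05, where 5.08% of all genes passed. The median log2 fold change was -0.18 over the nuclear genes, -0.07 over the mitochondrial genes and -0.02 over all genes. All 8 nuclear genes of complex III had a lower mean in Memantine, with a median of -0.27 and none past the test. Mt-nd6 had the smallest p here too, with the same 3 Glutamate libraries as in the comparison over Control. It was at 638, 649 and 572 CPM in Memantine, all below the Glutamate libraries, with a log2 fold change of -0.76 (SE 0.39, adjusted p = 0.999). It was the 1 OXPHOS gene of 97 without overlap in this comparison, where 2.86% of all genes had none. Ndufa10l1, named as a relative of a complex I subunit, and Uqcrfs1 came next, with log2 fold changes of -0.87 (SE 0.56) and -0.58 (SE 0.50).

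The secreted preparations were compared with glutamate alone, that is, with the same 3 Glutamate libraries each time. In Glutamate_vesicles against Glutamate, 0 of 97 genes passed the adjusted test, where 0% of all genes did, and 0 of 97 had an unadjusted p below 0.05, where 1.08% did. The groups overlapped for all 97 genes, where 6.27% of all genes showed none. The nuclear median was -0.28 and the mitochondrial median 0.12, beside -0.01 over all genes. The sign of this nuclear median depended on the model and the libraries, since it ran from -0.86 to 0.61 over the alternative runs. With the number of the library as a block, the nuclear genes carried both signs, such as -0.22 for Cox4i1 and 0.17 for Cox6a1. Mt-nd6 was at 564, 682 and 679 CPM in Glutamate_vesicles, and its highest value lay just above the lowest Glutamate value (log2 fold change -0.71, SE 0.39, adjusted p = 1). Atp5me, a small membrane subunit of the ATP synthase, was at 7.78, 1.81 and 2.58 CPM in Glutamate_vesicles and at 26.2, 0.190 and 3.79 CPM in Glutamate. The difference rested on Glutamate 1, since the log2 fold change was -1.32 (SE 1.42) with it and 1.03 without it.

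Glutamate_secret against Glutamate gave the largest nuclear median of the comparisons with glutamate, at 0.69, beside 0.16 over the mitochondrial genes and -0.01 over all genes. Of the 84 nuclear genes, 79 had a higher mean, yet 0 of 97 OXPHOS genes passed the adjusted test, where 0% of all genes did, and 0 of 97 had an unadjusted p below 0.05, where 0.681% did. The groups overlapped for all 97 genes, where 3.41% of all genes showed none. The medians were 0.70 for complex I, 0.27 for complex II, 0.66 for complex III, 0.69 for complex IV and 0.84 for complex V. Cox4i1 was at 2319, 292 and 2556 CPM in Glutamate_secret and at 2278, 142 and 1002 CPM in Glutamate. The groups overlapped, and the libraries numbered 3 lay farthest apart. Cox7c, a small subunit of complex IV, had the smallest p of the nuclear genes (log2 fold change 0.99, SE 0.68, adjusted p = 1). In the quasi-likelihood test with the number of the library as a block, the log2 fold change of Cox7c was 1.06 (adjusted p = 0.938). Without Glutamate 2 the nuclear median was 0.19, and without Glutamate 1 it was 1.48.

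Glutamate_BPC against Glutamate gave medians of 0.07 over the nuclear and 0.15 over the mitochondrial genes, beside -0.05 over all genes. With the number of the library as a block these medians were 0.62 and 0.20, beside 0.04 over all genes. Of the 84 nuclear genes, 82 were higher with the block and 59 without it. In the adjusted test 0 of 97 passed, where 0% of all genes did, and 1 of 97, Cox4i2, had an unadjusted p below 0.05, where 1.07% did. There was no overlap between the groups for 2 of 97 genes, Cox4i2 and Ndufa4l2, where 7.13% of all genes showed no overlap.

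The treated groups were also set against Control, which they share. The adjusted test called 0 of 97 OXPHOS genes in Memantine, Glutamate_vesicles, Glutamate_secret and Glutamate_BPC against Control, where it called 0%, 0.0139%, 0% and 0% of all genes. At an unadjusted p below 0.05 it found 0, 1, 0 and 1 of 97, where 1.12%, 11.6%, 11.8% and 11.3% of all genes passed. The gene was Cox4i2 in both cases. The nuclear medians were -0.13, -0.20, 0.67 and 0.14 and the mitochondrial medians 0.24, 0.23, 0.44 and 0.33, beside medians over all genes of 0.10, 0.03, 0.06 and -0.06. No overlap between the groups was seen for 3, 7, 2 and 6 of 97 genes, where 2.35%, 19.5%, 15.9% and 24.9% of all genes showed no overlap, so that the OXPHOS genes did not exceed the background in the comparisons with the secreted preparations.

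Among the genes without overlap against Control, Mt-cyb was above the Control range in all libraries of Memantine, Glutamate_vesicles and Glutamate_BPC. It was at 3839, 2079 and 2152 CPM in Memantine, at 2565, 3612 and 2229 CPM in Glutamate_vesicles and at 3290.0, 2618 and 2125 CPM in Glutamate_BPC. The largest of its log2 fold changes was 0.89 (SE 0.50, adjusted p = 0.539), in Glutamate_vesicles. Mt-atp6 had no overlap in Glutamate_vesicles and in Glutamate_secret, where it was at 3420.1, 4151 and 2947 CPM against 1237, 2369.6 and 2286 CPM in Control (log2 fold change 0.84, SE 0.46, adjusted p = 0.514). Sdhc was above its Control range of 132 to 144 CPM in every library of the secreted preparations, where it ran from 146 to 257 CPM. None of these passed the test.

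A test for any difference among the 6 groups, with 5 degrees of freedom, called 0 of 97 OXPHOS genes, where it called 0.00695% of all genes. At an unadjusted p below 0.05 it found 1 of 97, where 7.75% of all genes passed. This was Cox4i2 (adjusted p = 0.285). With the replicate number as a block the adjusted test called 0 of 97 OXPHOS genes in this test and in the 9 comparisons, where it called 3.45% of all genes over the 6 groups, 1.15% in Glutamate over Control, 3.74% in Glutamate_vesicles, 4.86% in Glutamate_secret and 1.74% in Glutamate_BPC over Control and 0% in the other 5.

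Cox4i2 encodes an isoform of the regulatory subunit of complex IV that takes the place of Cox4i1 in some cells and is known as a gene of the response to low oxygen. Its level was low, at 1.43, 1.47 and 0.377 CPM in Control, at 4.65, 1.02 and 1.56 CPM in Glutamate and at 1.72, 0.945 and 1.58 CPM in Memantine. It was at 3.19, 3.41 and 8.55 CPM in Glutamate_vesicles, at 2.36, 4.03 and 0.543 CPM in Glutamate_secret and at 5.25, 17.5 and 4.88 CPM in Glutamate_BPC. All libraries of Glutamate_vesicles and Glutamate_BPC lay above all Control libraries. The log2 fold change over Control was 3.12 (SE 0.85, adjusted p = 0.295) in Glutamate_BPC and 2.25 (SE 0.83, adjusted p = 0.294) in Glutamate_vesicles. Over Glutamate it was 1.95 (SE 0.80, adjusted p = 1) in Glutamate_BPC. None of the 3 passed after adjustment. For Glutamate_BPC over Control, DESeq2 gave an adjusted p of 0.0181 and called it, where it called 1.78% of all genes, and with the replicate number as a block the adjusted p was 0.0545. Without Glutamate_BPC 2, the highest library, the log2 fold change was 2.25.

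Ndufa4l2, which is also known from low oxygen, is a relative of Ndufa4, a protein now placed in complex IV, and both are counted here under complex I by their names. Ndufa4l2 was at 0, 1.91 and 1.94 CPM in Control and at 2.81, 4.27 and 3.25 CPM in Glutamate_BPC. It ran from 0.635 to 3.01 CPM in the other groups, and its adjusted p was 1 in Glutamate_BPC over Glutamate (log2 fold change 1.18, SE 0.79). Mural cells of vessels are known to express both genes. The sum of 6 markers of fibroblasts and mural cells ran from 3.71 to 11.3 CPM in Control and from 5.42 to 12.7 CPM in Glutamate. It ran from 7.62 to 10.9 CPM in Memantine and from 12.5 to 18.9 CPM in Glutamate_vesicles. In Glutamate_secret it ran from 5.67 to 19.4 CPM and in Glutamate_BPC from 11.8 to 14.6 CPM. The part of these markers in the values of both genes was not tested. In Control the marker Dcn had 0 counts.

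**Figure D3:**
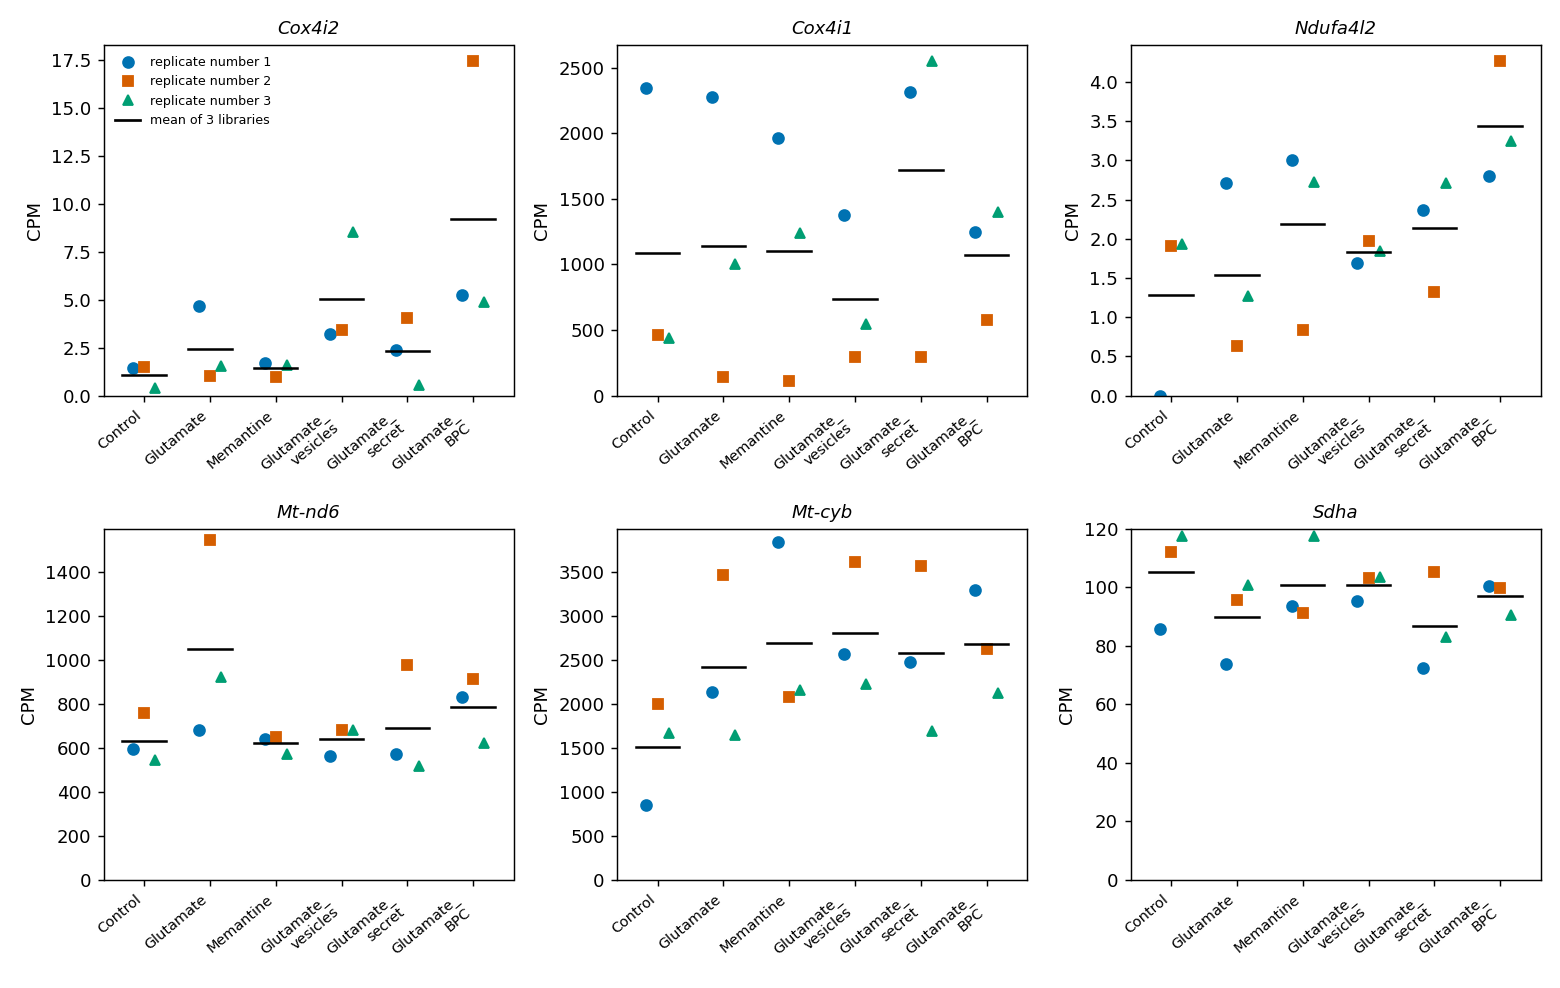
CPM (vertical axes, linear from 0) of 6 OXPHOS genes by group. Each point is 1 library, with colour and shape for its replicate number, and the black line is the mean of 3. Cox4i2 reaches 17.5 CPM in Glutamate_BPC 2, Cox4i1 and Sdha show wide and narrow spread within groups, and Mt-nd6 is highest in Glutamate 2 at 1543 CPM.

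The other isoforms that depend on tissue are given by their range over all 18 libraries. Cox6a2, the heart and muscle form of a complex IV subunit, ran from 0.167 to 10.9 CPM, and Cox6a1, its common form, from 63.0 to 1370.5 CPM. Cox7a1, likewise known from muscle, ran from 5.06 to 346 CPM, Cox7a2 from 13.7 to 645 CPM and Cox7a2l, which takes part in supercomplexes, from 70.9 to 399 CPM. Ndufa4 ran from 45.7 to 639 CPM and the inhibitor of the ATP synthase, Atp5if1, from 32.4 to 497 CPM. For each of these 7 genes, the lowest library was Memantine 2. Cox6b2, Cox8a and Cox8b were not analysed here.

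The values of the OXPHOS genes varied above all with the number of the library. Nuclear OXPHOS genes held between 0.731% and 1.90% of the counts without rRNA in the libraries numbered 2, against 2.50% to 3.34% in those numbered 1 and 1.70% to 3.59% in those numbered 3. The labels do not say what a number stands for, and the supplement of the study names a day that was removed as a batch in its plots without tying it to these numbers. Of the 18 libraries, 15 correlated best with a library of the same number. Control 3 resembled Control 2 in these genes, with summed nuclear complex I levels of 3467 and 3574 CPM, whereas Glutamate_secret 3 had 16976 CPM.

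**Figure D4:**
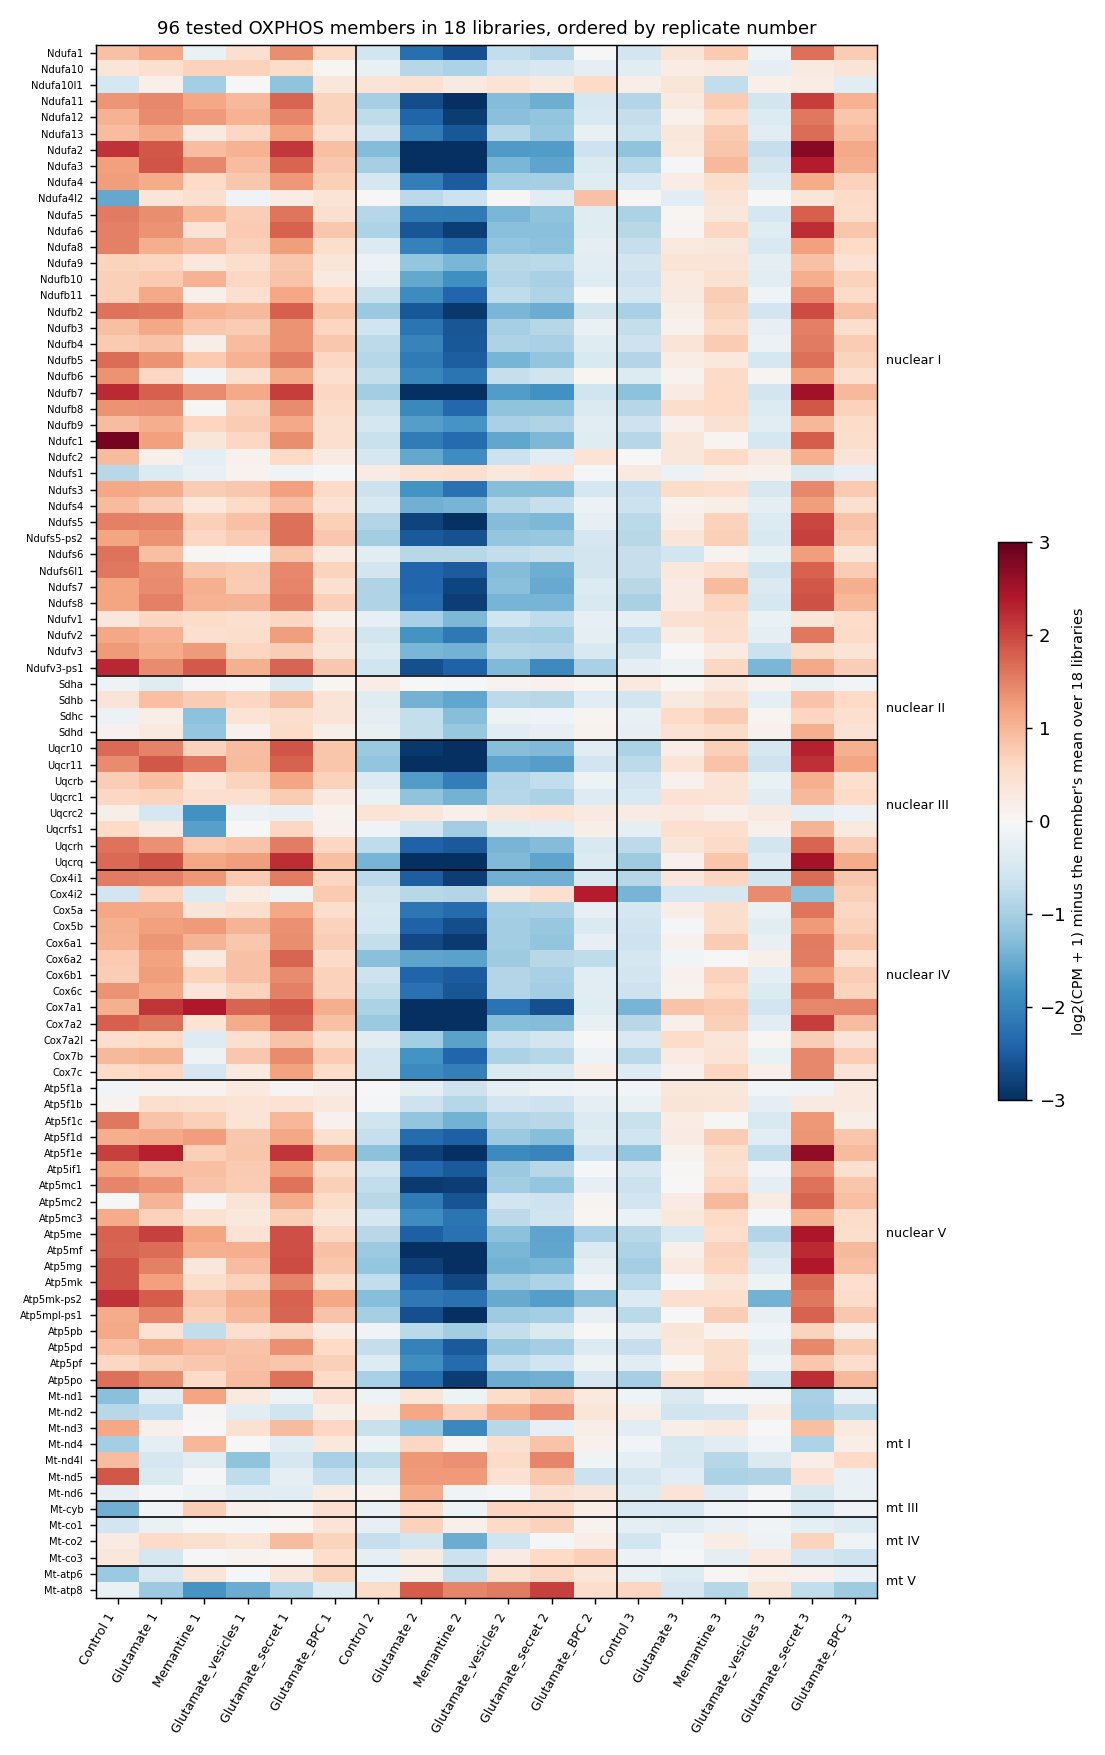
Level of 96 of the 97 tested OXPHOS genes (rows, by genome and complex) in 18 libraries (columns, ordered by replicate number and then by group), as log2(CPM + 1) minus the gene's mean over the libraries. Red is above and blue below the mean. The nuclear genes are blue in most libraries numbered 2. Sdha and Atp5f1a stay near their means there, while Ndufs1 and Uqcrc2 were called higher than in those numbered 1.

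Numbers were compared across the 6 groups in a model with group and number, a comparison chosen after the data had been seen. Between the libraries numbered 2 and 1, edgeR called 81 of 97 OXPHOS genes, 6 higher and 75 lower, where 61.2% of all genes were called, 32.8% higher and 28.5% lower. The median log2 fold change was -2.15 over the nuclear genes, 0.39 over the mitochondrial genes and 0.12 over all genes. Of the 84 nuclear genes, 73 fell, 3 rose and 8 did not pass. For 73 nuclear genes the number 2 library was below the number 1 library in all 6 groups, a count without a share over all genes beside it. When library sizes without rRNA were used in place of TMM, the median of all genes moved to 0.86, the nuclear median to -1.42 and the mitochondrial median to 1.13, and 15 OXPHOS genes were called higher and 67 lower, where 65.1% of all genes were called and 52.0% were called higher. Relative to all genes the nuclear set stayed low in that setting, but Mt-co2, Cox7c, Atp5pb, Atp5f1b, Ndufc2, Ndufv1, Cox7a2l and Ndufa10 kept a negative sign and no longer passed, and Sdha and 8 mitochondrial genes passed as higher. With the rRNA share as a covariate 0 of 97 genes were called, where 0.0833% of all genes were, and 62 of 97 had an unadjusted p below 0.05, where 25.7% of all genes did. The rRNA share and the number of a library moved together, and so did the share of ribosomal protein messages, which ran from 5.89% to 13.6% in the libraries numbered 1 and from 1.796% to 7.45% in those numbered 2. Cell markers differed too, with 4 of 7 for microglia called higher (median 2.73), 4 of 7 for astrocytes higher and 2 lower (median 1.33), 3 of 7 for the oligodendrocyte lineage higher (median 0.51), 2 of 10 for neurons higher and 3 lower (median -0.39), 1 of 4 for fibroblasts and mural cells higher (median 0.68) and 0 of 2 for endothelial cells (median 0.85). The part of these shares and markers in the difference was not tested.

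The lower nuclear genes were found in every complex, and 28.5% of all genes were called lower in this comparison. In complex I, 36 of 40 fell, with the lowest values for Ndufs6, Ndufa2 and Ndufb7, accessory or small subunits, at -3.76 (SE 0.82), -3.45 (SE 0.58) and -3.44 (SE 0.59). Ndufb7 was at 857, 635, 488, 397, 762 and 279.7 CPM in the libraries numbered 1 and at 87.9, 19.0, 15.002, 56.4, 50.7 and 120.01 CPM in those numbered 2, each set in the order Control, Glutamate, Memantine, Glutamate_vesicles, Glutamate_secret and Glutamate_BPC. These sets did not overlap, and the share of all genes without such overlap is not given here. Ndufs6 had at most 4.57 CPM while its relative Ndufs6l1 had between 15.8 and 319 CPM, and reads of such near copies may have been divided between them, which also holds for the 4 tested names that end in a pseudogene number. Core subunits of complex I split, since Ndufs7 and Ndufs8 fell by 2.53 and 2.65 on the log2 scale, Ndufv1 and Ndufv2 by 1.13 and 1.92, and Ndufs1 rose by 0.55 (SE 0.20, adjusted p = 0.0252).

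Complex II moved least, with 1 of 4 genes called, where 61.2% of all genes were called and 28.5% were called lower. Sdhb fell by 1.496 (SE 0.28) on the log2 scale, while Sdhc, Sdhd and Sdha had -0.45, -0.45 and 0.23 and did not pass. In complex III, 6 of 8 fell, from -1.36 (SE 0.27) for Uqcrc1 to -3.40 (SE 0.60) for Uqcrq, a small subunit. Uqcrc2 rose by 0.67 (SE 0.25, adjusted p = 0.0288), with values of 135, 83.7, 32.9, 105, 102 and 128 CPM in the libraries numbered 1 and 158, 151, 133, 152, 158 and 144 CPM in those numbered 2. Memantine 1 was the low one among the former. Uqcrfs1 had -0.42 (SE 0.29) and did not pass.

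In complex IV, 12 of 13 nuclear genes fell, where 28.5% of all genes were called lower. Cox4i1 fell by 2.71 (SE 0.46), Cox5a by 1.95, Cox5b by 2.40 and Cox6c by 2.19 on the log2 scale, and Cox7a1 had the lowest value at -3.78 (SE 0.64). Cox4i2 was the exception at 0.11 (SE 0.57). In complex V, 18 of 19 fell, from Atp5f1b, which fell by 0.86 (SE 0.24), to a lowest value of -4.16. Atp5f1e and Atp5me, small subunits of the stalk and the membrane part, fell by 3.86 (SE 0.64) and 3.54 (SE 0.66). Atp5f1a did not pass at -0.34 (SE 0.21), and over all 18 libraries it stayed between 509 and 988 CPM. Atp5f1c fell by 1.69 and Atp5if1 fell by 2.11.

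**Figure D5:**
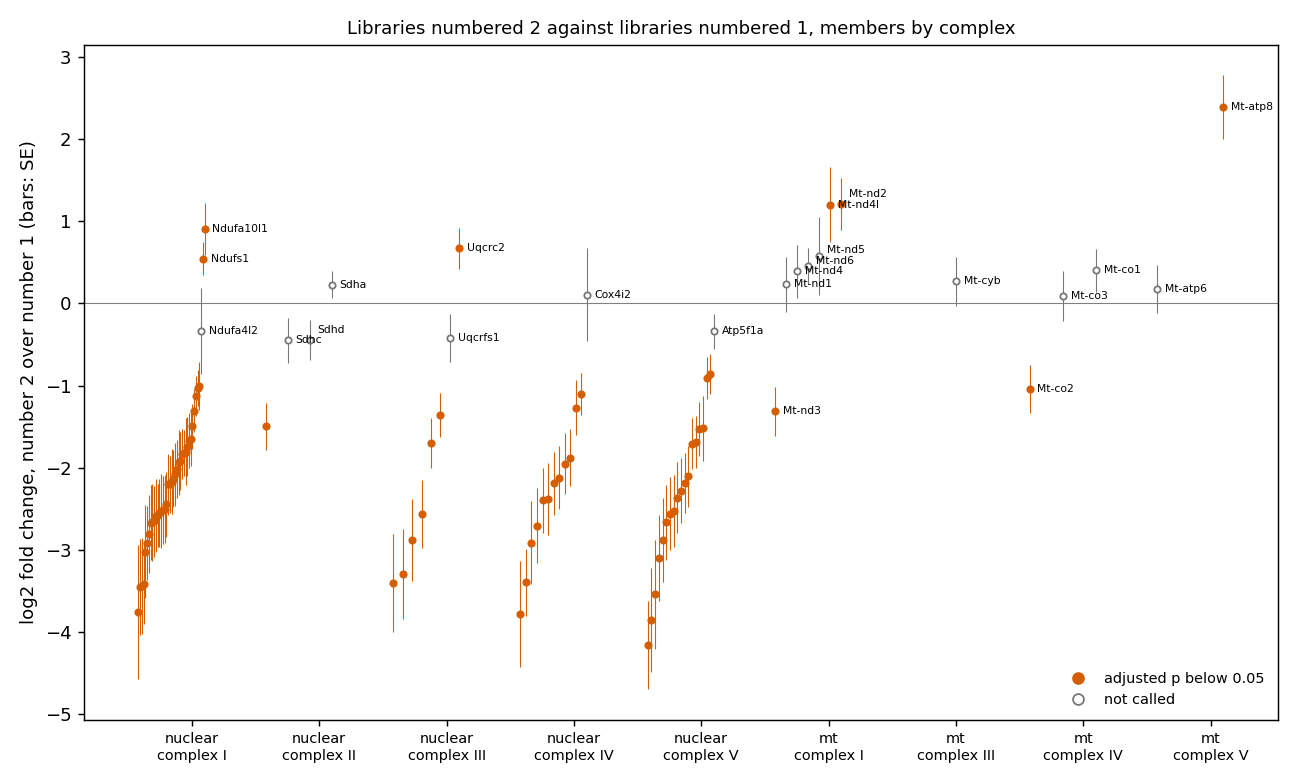
Log2 fold change of the libraries numbered 2 over those numbered 1 (vertical axis, bars are the SE) for 96 of the 97 tested OXPHOS genes, by genome and complex. Filled orange points had an adjusted p below 0.05. Nearly all nuclear genes lie below 0, down to -4.16, and the mitochondrial genes scatter around 0 from -1.32 to 2.39.

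Between numbers 3 and 2, 80 of 97 OXPHOS genes were called, 78 higher and 2 lower, where 41.9% of all genes were called, 22.1% higher and 19.8% lower, with medians of 1.62 over the nuclear and -0.60 over the mitochondrial genes. Between numbers 3 and 1, 0 of 97 passed the adjusted test, where 1.51% of all genes did, 1.14% higher and 0.375% lower, and 8 of 97 had an unadjusted p below 0.05, where 23.9% of all genes did. The median of number 3 over number 1 was -0.57 over the nuclear genes, of which 72 of 84 had a lower mean, and -0.24 over the mitochondrial genes, beside 0.09 over all genes. The edgeR likelihood-ratio test and DESeq2 called 2 OXPHOS genes each, where they called 9.18% and 10.7% of all genes. The quasi-likelihood test called 2 when Glutamate_secret 3 was left out, where it called 6.77% of all genes, and 2 when Glutamate_BPC 1 was left out, where it called 7.17%.

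The mitochondrial genes did not move as 1 block either. Between numbers 2 and 1, Mt-atp8, Mt-nd2 and Mt-nd4l rose by 2.39 (SE 0.39), 1.21 (SE 0.32) and 1.204 (SE 0.45) on the log2 scale, and Mt-nd3 and Mt-co2 had -1.32 (SE 0.29) and -1.04 (SE 0.29). The other 8 did not pass, among them Mt-co1 at 0.40 (SE 0.26) and Mt-cyb at 0.27 (SE 0.30). Mt-atp8 held between 0.0783% and 0.328% of the mitochondrial counts in the libraries numbered 1 and between 0.420% and 1.23% in those numbered 2, which did not overlap. Mt-co2 held between 21.3% and 31.3% in the former and between 8.94% and 18.7% in the latter, also without overlap. Mt-atp8 overlaps Mt-atp6 and Mt-nd4l overlaps Mt-nd4 in the genome, so that their reads can be shared in the counting. Among the complex I genes, Mt-nd5 was at 1781 CPM in Control 1 and at 252 to 1174 CPM in the other libraries.

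The promoter regions of the nuclear genes were also looked at, and their part in the difference between the numbered libraries was not tested. RefSeq windows of 300 bases on the rat assembly GRCr8, from 250 before to 50 after the start of the gene, were at hand for 72 of the 96 nuclear genes. The letters of 4 short patterns were counted on both strands, and a pattern that reads into another was counted for each. The 10-letter pattern of NRF1, a factor known for nuclear OXPHOS genes, was in 31.9% of the 72 windows, in 13.2% of the 10625 windows of tested genes and in 5.78% of all 33469 windows. CCGGAAG, a core of ETS factors such as GABP, was in 27.8%, 17.007% and 8.75% of the same windows. ATGGCGG, a core of YY1, was in 20.8%, 9.54% and 4.80%, and GGGCGG, a core of SP1, was in 44.4%, 62.9% and 33.1%. Among the 69 tested genes with a window, the median log2 fold change of number 2 over number 1 was -2.48 in the 20 with CCGGAAG and -2.02 in the 49 without it. It was -2.28 in the 23 with the NRF1 pattern and -2.09 in the 46 without it, and -1.81 in the 15 with ATGGCGG and -2.13 in the 54 without it. It was -2.06 in the 30 with GGGCGG and -2.12 in the 39 without it. The patterns were chosen with these fold changes known. A match is a description of the letters and not a site.

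The 120 bases before the start are shown for a pair of genes among those that fell most, Atp5me and Ndufb7, and for a pair that did not fall, Uqcrc2 and Sdha, chosen after their values were seen. They are written 5′ to 3′ on the strand of the gene, and capitals mark the NRF1 pattern or CCGGAAG, which reads CTTCCGG from the other strand. Atp5me lies at chr14:1464740-1464859 on the plus strand, Ndufb7 at chr19:41477292-41477411 on the minus strand, Uqcrc2 at chr1:184599120-184599239 on the plus strand and Sdha at chr1:30764433-30764552 on the plus strand.
Atp5me: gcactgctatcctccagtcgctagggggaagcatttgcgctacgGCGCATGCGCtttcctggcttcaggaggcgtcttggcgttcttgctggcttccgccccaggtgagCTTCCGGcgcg
Ndufb7: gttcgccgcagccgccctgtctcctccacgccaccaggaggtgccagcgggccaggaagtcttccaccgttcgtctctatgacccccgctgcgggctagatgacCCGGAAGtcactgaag
Uqcrc2: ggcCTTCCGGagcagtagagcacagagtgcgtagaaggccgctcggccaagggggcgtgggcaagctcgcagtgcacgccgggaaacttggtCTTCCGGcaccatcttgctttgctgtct
Sdha: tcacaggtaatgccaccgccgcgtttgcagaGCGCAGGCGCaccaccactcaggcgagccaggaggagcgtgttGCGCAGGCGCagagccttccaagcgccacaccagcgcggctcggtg
Atp5me holds 1 match of each of these patterns, Ndufb7 holds 1 of CCGGAAG, Uqcrc2 holds 2 of CCGGAAG and Sdha holds 2 of the NRF1 pattern. Among these genes, each pattern was found in the pair that fell and in the pair that did not. The genes were picked with their values known, so this cannot show whether the patterns had a part in the fold changes. That part was not tested.

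Other genes of the pathway were followed as lists. Between Glutamate and Control none of them had a gene called, where 0% of all genes were. The 4 subunits and partners outside the naming rule, Ndufab1, Cyc1, Cycs and Dmac2l, had a median log2 fold change of 0.09. The median was 0.20 over 34 assembly factors, 0.06 over 13 genes of the tricarboxylic acid cycle, 0.27 over 20 genes that copy, transcribe or stabilise mitochondrial DNA and RNA, 0.24 over 8 regulators of nuclear OXPHOS genes and 0.06 over 14 carriers and channels of the mitochondrial membranes. Of the genes for mitochondrial DNA and RNA, 19 of 20 had a higher mean in Glutamate, and Prorp, part of the enzyme that processes mitochondrial transfer RNA, had the smallest p (log2 fold change 0.47, SE 0.33, adjusted p = 0.901). Micu3, a regulator of the mitochondrial calcium uniporter known from neurons, had a log2 fold change of -2.12 (SE 0.98, adjusted p = 0.599), beside neuron markers of which 10 of 10 had a lower mean, with a median of -1.52. With the number of the library as a block, 4 of the 10 neuron markers were called lower, where 1.15% of all genes were called. Of the other cell markers, 7 of 7 for astrocytes, 7 of 7 for microglia, 6 of 7 for the oligodendrocyte lineage, 3 of 4 tested for fibroblasts and mural cells and 1 of 2 tested for endothelial cells had a higher mean in Glutamate, with none called, and their part in the OXPHOS values was not tested.

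Between the libraries numbered 2 and 1 the calls of these lists are to be read against 61.2% over all genes. All 3 called of the 4 subunits and partners outside the naming rule fell, with a median of -0.75, and of 14 carriers and channels, 5 fell and 3 rose, with a median of 0.21. Of 34 assembly factors, 18 fell and 3 rose, with a median of -0.63, and of 13 genes of the tricarboxylic acid cycle, 2 fell and 6 rose, with a median of 0.41, a share called close to that of all genes. Of the 20 genes for mitochondrial DNA and RNA, 6 fell and 4 rose, with a median of -0.05, and of the 8 regulators, 1 fell and 4 rose, with a median of 1.197. The sum of the tricarboxylic acid cycle genes stayed between 1048 and 1556 CPM over all 18 libraries.

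The filter on low counts removed 12 of the 109 genes, all encoded in the nucleus. They were Cox7b2, Cox8c, Ndufb4l1 and 9 names that end in a pseudogene number, and 4 of the 12 had 0 counts in every library.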

How the data were processed

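Gene-level RNA-seq values of 18 libraries, 3 in each of 6 groups, were analysed. The authors deposited 1 table of estimated counts per gene, made with Salmon on rat transcripts and summed to genes by tximport according to the methods, and the submitters' processing notes name STAR, Salmon and the rat build rn6. The deposited estimated counts are not all whole and were rounded here, although plain counts had been assumed when the tests were chosen. The sequencing platform and library kit differ between the labels and the methods of the study, and whether strand was used in counting is not stated in these sources, so that a gene and an overlapping gene on the other strand may share reads.

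Groups and numbers were taken from the sample titles. Library totals ran from 8409574 to 17206354 counts, and 78 rows of rRNA were kept in the totals. Genes were kept by filterByExpr with a minimum count of 10 and a minimum total of 15, scaled by TMM, and fitted in edgeR 4.0.16 (R 4.3.3) with 1 mean per group over all 18 libraries. The quasi-likelihood test was adjusted by Benjamini and Hochberg over 14398 genes with a threshold of 0.05. DESeq2 1.42.0, the edgeR likelihood-ratio test, other scalings, no filter, the replicate number as a block, the rRNA share as a covariate and leaving out each library were alternatives. The code was tested on simulated data.

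Same-numbered libraries deviated together, with every correlation above 0.1, in Memantine, Glutamate_secret and Glutamate_BPC against Glutamate and in Glutamate_vesicles against Control. In the other 5 comparisons only the libraries numbered 3 missed this limit, with correlations from -0.454 to 0.00459. Those numbered 1 and 2 had correlations from 0.311 to 0.845 there. The comparisons between numbers were chosen after the data had been seen. The OXPHOS genes and the other lists were chosen with earlier results of these data known. Genes were named by rule, as all mitochondrial genes, the core nuclear subunits, tissue isoforms and regulators, the 3 genes with the smallest p in each comparison and those removed by the filter. Of the core nuclear subunits, 1 is counted in the totals and not reported here by itself. For the comparison of numbers, further genes with the lowest values, and 4 genes for the promoters, were picked with their values known.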

Additional observations from a re-analysis of the deposited data

How the results depend on the processing

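In the 9 comparisons between groups the count of OXPHOS genes called stayed at 0 in every alternative run, except that DESeq2 called 1, Cox4i2, in Glutamate_BPC over Control. Over the 6 groups the likelihood-ratio test called 1, again Cox4i2. With the replicate number as a block, a paired analysis, 0 OXPHOS genes were called in the 9 comparisons and in the test over 6 groups, and no call changed. The nuclear medians did change. With the block they were -0.24 in place of 0.08 for Glutamate over Control and 0.62 in place of 0.07 for Glutamate_BPC over Glutamate. For Memantine over Glutamate the median was -0.13 in place of -0.18. Over Control it was -0.39 in place of -0.13 for Memantine and 0.32 in place of 0.14 for Glutamate_BPC. The medians depended on single libraries, and the cause was not tested. Leaving out 1 library at a time, the nuclear median ran from -0.70 without Glutamate 1 to 0.91 without Control 1 for Glutamate over Control, from -0.66 to 0.60 for Memantine over Glutamate, from -0.86 to 0.50 for Glutamate_vesicles over Glutamate, from 0.19 to 1.48 for Glutamate_secret over Glutamate and from -0.36 to 0.92 for Glutamate_BPC over Glutamate. Over Control it ran from -0.43 to 0.75 for Memantine, from -0.82 to 0.63 for Glutamate_vesicles, from 0.35 to 1.63 for Glutamate_secret and from -0.069 without Control 3 to 1.06 without Control 1 for Glutamate_BPC. The mitochondrial median ran from -0.0060 without Glutamate 2 to 0.54 without Glutamate 1 for Glutamate over Control, from -0.27 to 0.51 for Memantine, from -0.080 to 0.47 for Glutamate_vesicles, from -0.29 to 0.46 for Glutamate_secret and from -0.064 to 0.51 for Glutamate_BPC, each over Glutamate. Over Control it ran from -0.06 to 0.41 for Memantine, from 0.22 to 0.60 for Glutamate_vesicles, from -0.18 without Glutamate_secret 2 to 0.78 without Glutamate_secret 3 for Glutamate_secret and from 0.20 to 0.59 for Glutamate_BPC.

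Of single genes, Atp5me in Glutamate_vesicles over Glutamate ran from -2.18 to 1.03 and was 0.30 with the rRNA share as a covariate, and Ndufc1 in Glutamate_vesicles over Control ran from -2.49 to 0.55, the latter without Control 1. As a share of all counts without rRNA, in place of OXPHOS counts, the mitochondrial genes held 2.44%, 3.05%, 2.84%, 3.43%, 3.12% and 3.25% in the groups from Control to Glutamate_BPC, in the order of the report, which is another denominator.

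Between numbers 2 and 1, the count of 81 ran from 78 to 82 with 1 library left out, and between numbers 3 and 2 the count of 80 ran from 70 to 85. With the rRNA share as a covariate both counts were 0, the nuclear median of number 2 over 1 was -1.24 and the mitochondrial median of number 3 over 2 was -0.24. With library sizes without rRNA and no TMM, the medians of number 2 over 1 were -1.42 for nuclear and 1.13 for mitochondrial genes, and the mitochondrial median of number 3 over 2 was -0.98. Between numbers 3 and 1 the likelihood-ratio test and DESeq2 called 2 each, and leaving out 1 library gave 0 to 2.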
